A study of Arabidopsis thaliana with 18 samples.

Results

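Methylene Violet (MV) is a dye that can pass light energy to oxygen, and the arrays described here set MV-treated cells against untreated cells. All were suspension cells of Arabidopsis thaliana (Columbia ecotype) grown in the light (ACSC). By the paper the cells were collected early, after a short treatment, so the results do not cover later times. The arrays were taken by their titles. They are the 3 arrays of MV at 0.5 μM and the 3 untreated arrays whose titles name MV and Indigo Carmine (IC) with the same number, which makes 6 of the 18 arrays of the series. The titles name the dye Methyl Violet and the study's text names it Methylene Violet, and the files do not settle which dye was in the flask. The other arrays came from cells given IC or Rose Bengal (RB) at 0.5 μM or hydrogen peroxide at 500 μM, and from a separate control for RB and hydrogen peroxide, each with 3 biological replicates. Treatments in the light and in the dark are both described in the methods and the labels, and the labels do not assign them to arrays. The paper describes the transcript profiles of RB and hydrogen peroxide as those of cells treated in the light. The controls carried no treatment, and each was numbered with the MV array it accompanies.

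All of the RNA came from suspension cells that keep green plastids but form no leaf, so the culture stands for photosynthetic cells without a tissue around them. RCA and HTB2, picked as markers of green and of dividing cells, were bright on all 6 arrays, but other listed genes were dimmer. AtLHCB7, also of green cells, gave 5.19, 5.56 and 5.23 in MV cells. The median of 10 cyclin, CDK and histone genes was 6.77, 6.60 and 6.39 on the MV arrays and 6.32, 6.52 and 6.56 on the control arrays. Over all probe sets the median was 5.10, 5.10 and 4.97 on the MV arrays and 5.07, 5.04 and 5.12 on the control arrays. RCA, which encodes Rubisco activase, gave log2 signals of 10.76, 10.59 and 11.16 in MV cells against 11.37, 11.21 and 11.37 in the control. HTB2, a histone gene, gave 12.50, 12.13 and 11.50 in MV cells against 12.55, 12.06 and 12.11 in the control. Seed storage protein genes, which should be low in such cells, had no named probe set in the annotation used here. As the RNA was taken from whole cultures, fewer cells with a transcript and less of it per cell cannot be told apart.

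Photosensitizers are dyes that, once lit, turn ordinary oxygen into singlet oxygen, a short-lived and reactive form that plants also make in photosystem II. Plant cells answer it with a fast wave of nuclear transcripts for transcription factors, kinases and lipases, and where it arises in chloroplasts the signal has to travel from the organelle to the nucleus. The plastid and mitochondrial genomes keep their own small sets of genes for photosynthetic and respiratory complexes, for ribosomes and, in plastids, for an RNA polymerase.

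The 3 pairs differed from each other. Across the 22746 probe sets the log2 difference between MV and control correlated with 0.617 between pairs 1 and 2, but with -0.205 between pairs 1 and 3 and with -0.366 between pairs 2 and 3. This is a description over probe sets, which are not independent. The standard deviation of the differences was 0.243 in pair 1, 0.407 in pair 2 and 0.462 in pair 3, against 0.275, 0.266 and 0.294 for the IC arrays and the same controls. In pair 3, 747 probe sets lay below -1 and 200 above 1, whereas in pair 2 there were 240 below -1 and 341 above 1, and in pair 1 there were 17 below -1 and 57 above 1. MV array 3 was also the one farthest from its group mean, with a root mean square deviation of 0.312 against 0.239 and 0.260 for MV arrays 1 and 2. Signal gaps between 3′ and 5′ control probe sets widen in RNA of poorer quality. For the GAPDH and actin pairs given next, the gap was also widest on MV array 3 among the 6 arrays. The log2 signal of the 3′ minus the 5′ control probe set of GAPDH was 2.36, 2.55 and 2.74 on MV arrays 1, 2 and 3, against 2.27, 2.39 and 2.05 on the control arrays, and that of actin was 2.82, 2.79 and 3.27 on the MV arrays, against 2.67, 2.88 and 2.70 on the control arrays. On IC arrays 1, 2 and 3 the same measure was 2.86, 2.96 and 1.91 for GAPDH and 3.41, 3.12 and 2.56 for actin. IC arrays 1 and 2 were above MV array 3 for GAPDH, and IC array 1 for actin. Other control pairs were mixed. Another GAPDH pair also had its widest gap on MV array 3, but another actin pair did not. The 3′ and 5′ signals of that actin pair were 11.91 and 6.67 on MV array 3, against 11.52 and 5.95 on control array 1. The part of RNA quality in the MV results was not tested.

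No transcript passed the test between MV and control. With limma and the replicate number as a block, 0 of 22746 probe sets (0%) had a Benjamini-Hochberg adjusted p under 0.05, and the smallest adjusted p was 0.579. Without the block the count was 0 as well, with a smallest adjusted p of 1.0. At an unadjusted p under 0.05 there were 491 probe sets higher in MV cells (2.16%) and 781 lower (3.43%), 1272 together, and 758 without the block. The quartiles of all differences were -0.12 and 0.13 on the log2 scale. The mean differences exceeded 1 in 25 probe sets and were below -1 in 11, and 17 of the 25 and 1 of the 11 were organelle-encoded. 

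The design sets how large an unseen effect could be. The 95% interval of a difference had a median half-width of 0.347 on the log2 scale, and it was 0.247 at the 5th and 0.649 at the 95th percentile of probe sets. For 21931 probe sets (96.4%) the whole interval lay within -1 and 1, and for 15482 (68.1%) it lay within a change of 1.5-fold. Among the 9038 with a mean signal of at least 6 these shares were lower, at 94.9% and 60.6%. Among the 13708 dimmer ones they were 97.4% and 73.0%. A pair of one-sided limma tests against these bounds of -1 and 1, adjusted over all probe sets, placed 22307 of them (98.1%) inside. Among the 815 whose interval reached past a bound, 416 did so only upwards, 373 only downwards and 26 both ways. The 100 organelle-encoded probe sets made up 63 of these 815. A single probe set with the median standard error would have needed a log2 difference of 1.31, or 2.48-fold, to pass the adjustment alone. All of these limits take their spread from the fit over all 18 arrays, while the MV pairs disagreed as described above. With only the 6 arrays of MV and its control, 93.2% of the intervals lay within -1 and 1. Their median half-width was then 0.370, and the tests against -1 and 1 placed 21967 probe sets inside.

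**Figure D1:**
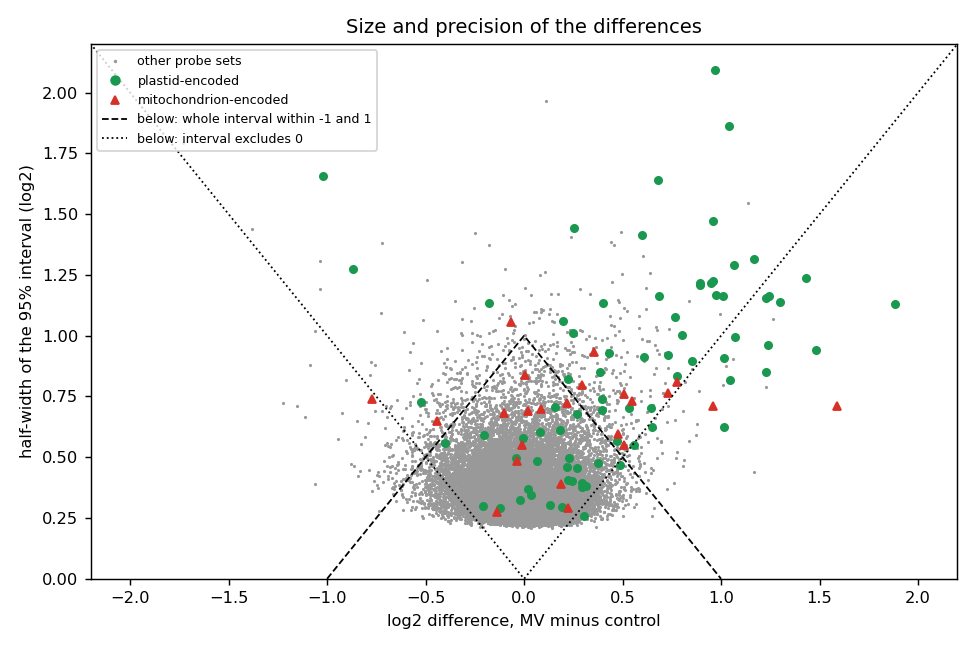
Each point is 1 of the 22746 probe sets, with the log2 difference between MV and control on the horizontal axis and the half-width of its 95% interval on the vertical axis; green circles are plastid-encoded and red triangles mitochondrion-encoded probe sets. Most points lie below the dashed lines, where the whole interval is within -1 and 1 (96.4%), and the points far above them are mainly organelle-encoded.

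The direction of a small difference followed the signal level. Of the 8490 probe sets with a mean log2 signal under 4 over the 6 arrays, 74.1% were higher in MV cells and the median difference was 0.08. Of the 5302 with a mean from 6 to 8, 35.9% were higher with a median of -0.07, and of the 900 with a mean of 10 or more, 26.4% were higher with a median of -0.09. In the IC arrays against the same controls the medians of these 3 classes were 0.05, -0.04 and -0.04. A median of about -0.09 for a list of bright transcripts is that of bright probe sets at large. 

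Plastid-encoded transcripts were the group that stood farthest from 0. Of 69 such genes with a probe set of their own, 58 were higher and 11 lower in MV cells, with a median log2 difference of 0.40, beside 0.01 over all probe sets. None passed the adjustment. At an unadjusted p under 0.05, 13 were higher and 0 lower, beside 2.16% and 3.43% of all probe sets. In all 3 pairs 25 were higher (15.2% of all probe sets) and 3 lower (12.6%), and every MV array lay above every control array for 6 (6.33% of all probe sets), while for 0 every MV array lay below (4.56%). The list median was 0.63 in pair 1 and 0.66 in pair 2 but 0.16 in pair 3. In IC cells against the same controls the median of the list was 0.17.

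The largest difference on the whole array was that of petL, which encodes a small subunit of the cytochrome b6f complex between the photosystems. Its log2 signals were 6.83, 7.53 and 8.63 on MV arrays 1, 2 and 3, against 4.77, 6.13 and 6.44 on control arrays 1, 2 and 3. The groups did not overlap, and the log2 difference was 1.88 (95% interval 0.75 to 3.01, adjusted p = 0.820 with limma). IC cells against the same controls also gave a rise of petL, at 1.22, and MV minus IC was 0.66 (-0.47 to 1.79). Its neighbour petG, for another small subunit of that complex, gave 6.62, 6.80 and 6.83 in MV cells against 4.46, 5.34 and 6.01 in the control. There too every MV array was above every control array, with a difference of 1.48 (0.54 to 2.42). For petG the IC difference was 1.155, and MV minus IC was 0.33 (-0.62 to 1.27). On the whole array 2 probe sets exceeded 1 under IC. The rpoC1 gene, for a subunit of the plastid RNA polymerase, gave 8.59, 8.84 and 8.94 in MV cells against 6.85, 7.31 and 8.53 in the control. The groups did not overlap, although control array 3 came close to the MV arrays, and the difference was 1.23 (0.38 to 2.08). For matK, the gene of the plastid splicing factor maturase K, the values were 9.47, 10.03 and 10.57 in MV cells and 8.42, 9.18 and 9.44 in the control, again without overlap, and the difference was 1.01 (0.39 to 1.64). Under IC, rpoC1 differed by 0.59 and matK by 0.52 from the same controls.

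Other genes of the 69, among them atpF (log2 difference 1.24), were higher in every pair while the groups overlapped. The largest of these with a mean signal of at least 6 were psaI (1.24), psbC (1.23), psbZ (1.04), rps4 (1.02) and rps19 (1.01). The psaI gene encodes a small subunit of photosystem I, psbC the CP43 antenna protein of photosystem II and psbZ a further subunit of it. The rps genes encode ribosomal proteins. For psaI, psbC, psbZ, rps4 and rps19 the difference was smallest in pair 3, at 0.24, 0.51, 0.73, 0.06 and 0.27. In psaI, for example, the MV arrays gave 8.01, 8.56 and 8.41 and the control arrays 6.21, 6.88 and 8.17, so that it was control array 3 that lay apart from control arrays 1 and 2. Control array 3 was the brightest of the 3 controls for 46 of the 69 plastid genes. The median signal of the list was 7.21, 7.51 and 7.12 on the MV arrays and 6.18, 6.43 and 7.77 on the control arrays, against 7.38, 6.45 and 6.81 on the IC arrays.

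For 24 of the 69 plastid genes pairs 1 and 2 were up and pair 3 was down. The widest such splits were in the ribosomal protein genes rpl14, rpl16 and rpl22, which lie close together in the locus tags of the plastid genome. Smaller splits were seen in rps3 beside them and in psbK, rps2 and ycf3 elsewhere. The rpl16 gene gave 7.99, 8.09 and 5.66 in MV cells against 5.19, 5.28 and 8.37 in the control. The pair differences were 2.80, 2.81 and -2.71, and the mean of 0.97 therefore had a 95% interval from -1.12 to 3.06. Pair differences of rpl22 were 2.09, 2.39 and -2.43. The adjacent ndhI and ndhA genes, for subunits of the plastid NADH dehydrogenase-like complex, were low only on MV array 3. The signals of ndhA were 7.995, 7.68 and 4.44 in MV cells and 8.36, 6.51 and 8.31 in the control, and the mean difference was -1.02 (-2.68 to 0.64). The opposite held for psaC, psbT and psbA, which were highest on MV array 3, with pair 3 differences of 2.74, 2.69 and 2.04.

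By function, all 6 pet genes (median 0.72), all 5 psa genes (0.96) and all 6 atp genes (0.49) had a mean above 0. The same was true of 13 of 15 ribosomal protein genes (median 0.68), 7 of 10 ndh genes (0.29), 10 of 15 psb genes (0.27) and 3 of 4 rpo genes (0.23). The brightest plastid transcript, atpE for a subunit of the ATP synthase, gave 12.83, 12.88 and 13.21 in MV cells against 12.19, 12.57 and 13.02 in the control. This difference of 0.38 (-0.10 to 0.85) was higher in every pair, though the groups overlapped. The rbcL gene, for the large subunit of Rubisco, differed by 0.39 (-0.30 to 1.09). Only 24 of the 69 plastid genes had an interval wholly within -1 and 1, and the median half-width was 0.85, beside 0.347 over all probe sets.

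**Figure D2:**
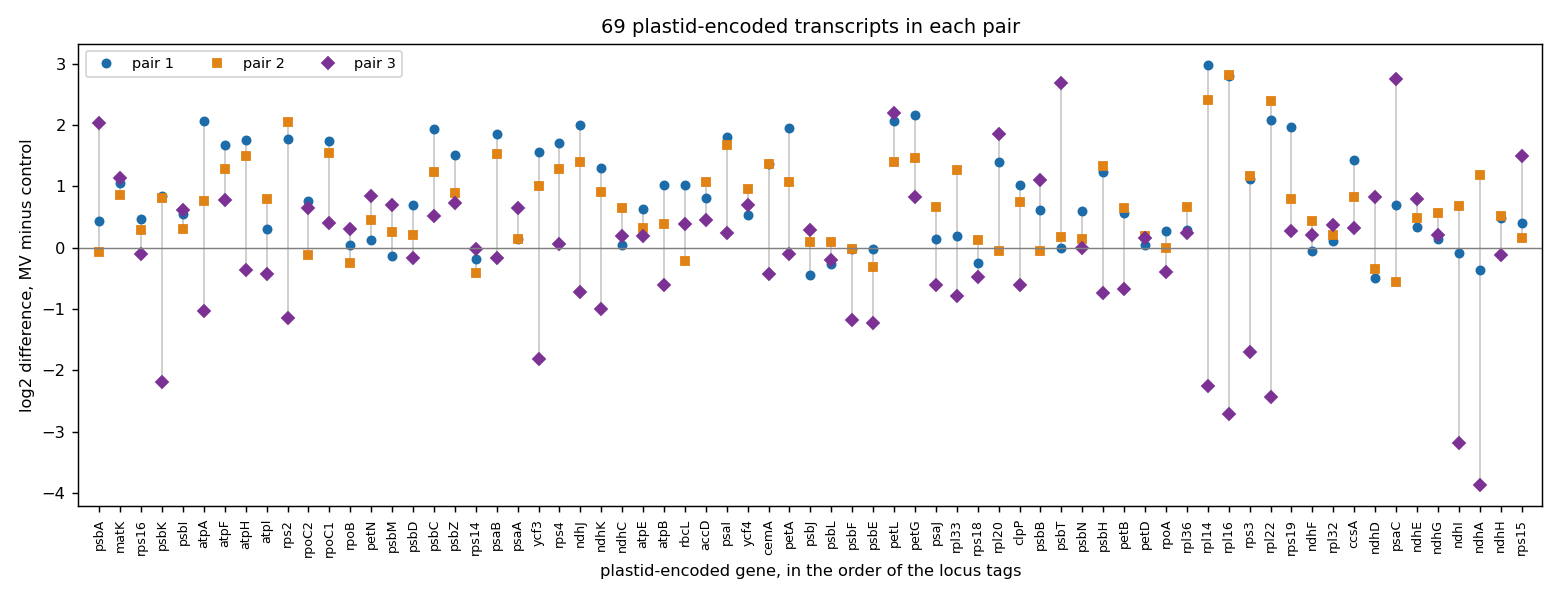
The log2 difference between MV and control is shown for each of 69 plastid-encoded genes in pairs 1 (circles), 2 (squares) and 3 (diamonds), with genes in the order of their locus tags along the plastid genome. Pairs 1 and 2 lie together above 0 for most genes, whereas pair 3 falls far below 0 at rpl14 to rpl22 and at ndhI and ndhA.

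Mitochondrion-encoded transcripts split by pair in another way. Of 16 genes 10 were higher and 6 lower in MV cells, with a median of 0.15, but the median was -0.19 in pair 1, -0.37 in pair 2 and 1.42 in pair 3. MV array 3 was the brightest of the 6 arrays for 12 of the 16, and the list median was 6.61, 6.95 and 8.31 on the MV arrays against 6.99, 7.48 and 6.84 on the control arrays. The pattern was that of nad4, for a subunit of respiratory complex I, with 8.34, 9.02 and 10.82 in MV cells against 9.31, 9.90 and 9.19 in the control. Every MV array lay above every control array for 2 of the 16 (6.33% of all probe sets) and below for 2 (4.56%). The nad6 gene, for another subunit of complex I, gave 5.58, 6.38 and 7.01 in MV cells against 4.70, 5.03 and 4.47 in the control, a log2 difference of 1.59 (0.88 to 2.30, adjusted p = 0.820 with limma). The cox1 gene, for the catalytic subunit of cytochrome c oxidase, gave 10.18, 10.47 and 11.49 in MV cells against 9.51, 10.12 and 9.63 in the control, a difference of 0.96 (0.25 to 1.67). The dim nad2 and nad7 genes, for further subunits of complex I, lay wholly below the control, at -0.44 (-1.09 to 0.21) and -0.14 (-0.41 to 0.13). The ccb382 gene, for a factor of cytochrome c assembly, was lower in every pair, though with overlap, with 7.42, 7.41 and 8.40 in MV cells against 7.64, 8.60 and 9.30 in the control and a difference of -0.77 (-1.51 to -0.03). Probe sets such as that of nad6 can also bind transcripts from the copy of mitochondrial DNA in the nuclear genome, so their signal cannot be assigned to the organelle alone. With pair 3 left out, nad6 still differed by 1.11 and petL by 1.73, whereas the median of the mitochondrial list turned to -0.36.

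Nuclear transcripts for photosynthesis did not share the direction of the plastid genes. Of the 6 with a named probe set 5 were lower in MV cells, with a list median of -0.22. RCA, whose signals are given above, was lowest relative to the control (log2 difference -0.48, 95% interval -0.82 to -0.13) and every MV array lay below every control array. Only AtLHCB7, for a light-harvesting protein, was above 0, with 5.19, 5.56 and 5.23 in MV cells against 4.76, 5.25 and 4.88 in the control and a difference of 0.36 (0.11 to 0.61), though the groups overlapped. In pair 3 the list median was 0.17, whereas it was -0.26 in pair 1 and -0.57 in pair 2.

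Genes of the tetrapyrrole pathway, which leads to chlorophyll and haem, had the lowest median of all lists with at least 5 genes (-0.24). Of 12 genes 9 were lower, 4 of them in all 3 pairs (12.6% of all probe sets), and 2 were lower with an unadjusted p under 0.05 (3.43%). The list median was -0.23 in pair 1 and -0.52 in pair 2 but -0.01 in pair 3. The GUN4 gene, for an activator of the enzyme that inserts magnesium into the porphyrin ring, gave 4.66, 3.62 and 4.62 in MV cells against 5.06, 4.72 and 4.90 in the control. Each MV array lay below every control array, and the difference was -0.59 (-0.9998 to -0.18, adjusted p = 0.825 with limma). HEMC, for porphobilinogen deaminase, differed by -0.46 (-0.75 to -0.18), and PORB, for a light-dependent protochlorophyllide reductase, by -0.42 (-0.86 to 0.03). The brightest member, FC1 for a ferrochelatase, differed by -0.12 (-0.41 to 0.18). The bounds of all 12 genes were within -1 and 1.

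MV was used beside RB as another source of singlet oxygen, to ask whether the place in the cell where it arises matters for the response. The paper also states that MV has a lower singlet oxygen yield than RB. It could not determine whether place alone explained the lack of change under MV. The study listed 27 probe sets as markers of that response. They belong to an earlier published list of singlet oxygen markers, and the study kept those that RB changed on arrays of this series. Their direction is therefore not independent evidence for RB. In MV cells 19 of the 27 were higher and 8 lower, with a median of 0.11. The median was 0.03 in pair 1, -0.09 in pair 2 and 0.16 in pair 3. None passed the adjustment, and at an unadjusted p under 0.05 there were 0 higher and 1 lower. The highest was DLAH, for a lipid acylhydrolase, with 6.96, 5.64 and 6.61 in MV cells against 6.92, 5.53 and 5.63 in the control and a difference of 0.38 (-0.33 to 1.08). The lowest were the factor gene ERF13, with 5.53, 5.24 and 5.83 in MV cells against 6.73, 6.38 and 5.68 in the control (-0.73, -1.82 to 0.36), and CAF1a, for an enzyme that shortens the poly(A) tail, with 6.57, 5.95 and 6.96 in MV cells against 7.54, 7.30 and 6.82 in the control (-0.72, -1.41 to -0.03). Both were below the control in pairs 1 and 2 and above it in pair 3. For 25 of the 27 the upper bound was under 1 on the log2 scale, the exceptions being DLAH and AT1G43000.

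These values can be set beside those of RB at the same dose, which was compared with its own 3 control arrays. The same dose is not the same amount of singlet oxygen, given the lower yield of MV. Under MV the 27 estimates ran from -0.73 to 0.38, against 1.02 to 4.42 under RB. For 26 of the 27 the whole MV interval lay below the whole RB interval, and the exception was AT1G43000. The study took the 27 from transcripts that RB changed by over 1 on the log2 scale on these arrays. Neither this separation nor the share of them called in the comparison that follows is therefore a test of MV against RB. The RB effect minus the MV effect, tested in the same limma fit and adjusted over all probe sets, passed for 14 of the 27, all with RB higher, beside 216 (0.95%) with RB higher and 89 (0.391%) with RB lower among all probe sets. Examples are ERF5, a factor of the ethylene response, with 0.11 (-0.24 to 0.47) under MV against 3.37 under RB, and EXO70B1, for an exocyst subunit, with 0.12 (-0.16 to 0.39) under MV against 1.58 under RB. For MPK3, a stress-activated MAP kinase, MV cells gave 9.15, 8.90 and 8.52 against 8.86, 8.29 and 8.45 in the control. This difference of 0.33 (-0.01 to 0.66) was higher in every pair, and that of RB was 1.28. The difference between these effects had an adjusted p of 0.0563 with limma and did not pass.

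**Figure D3:**
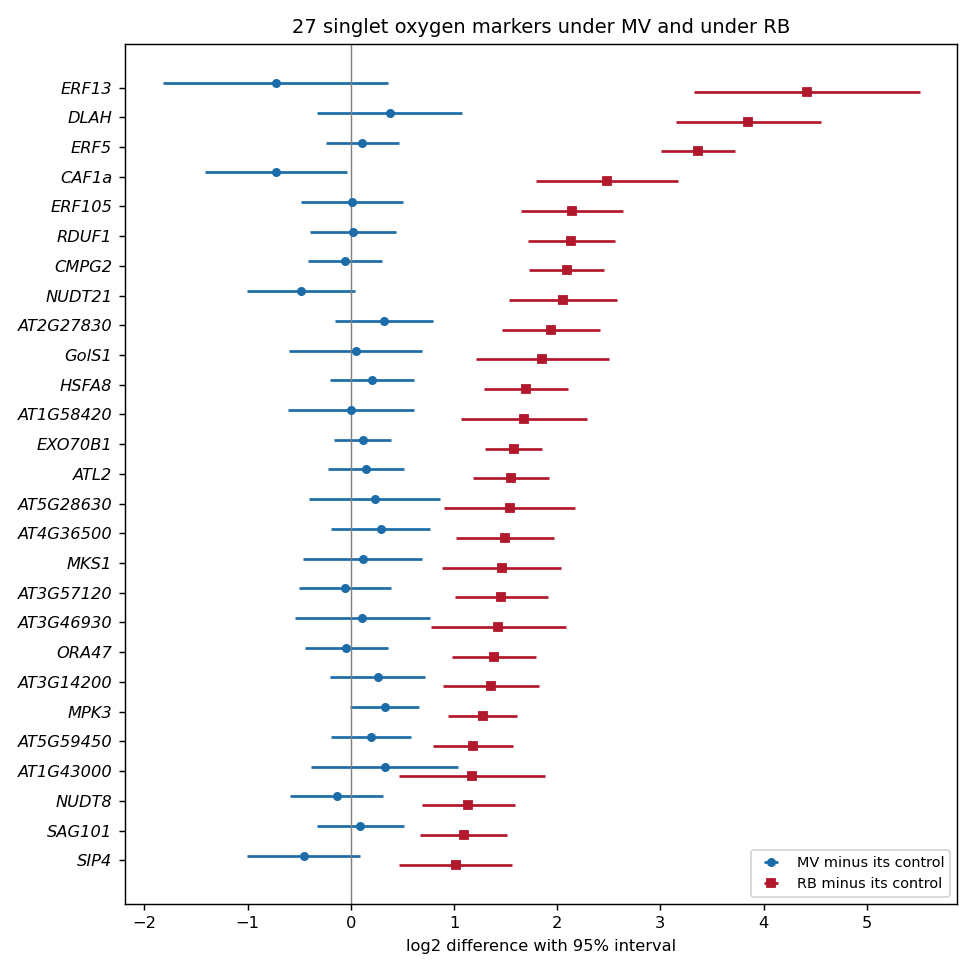
Log2 differences with 95% intervals are shown for 27 singlet oxygen markers, MV minus its control as blue circles and RB minus its control as red squares, with genes sorted by the RB value. The MV estimates lie between -0.73 and 0.38 and the RB estimates between 1.02 and 4.42.

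The comparison was carried to all probe sets that RB changed. Of the 303 that rose over 1 on the log2 scale in RB cells and passed the adjustment there, 193 were higher and 110 lower in MV cells, with a median of 0.07. The MV values ran from -0.85 to 1.17. Of the 171 that fell below -1 in RB cells, 152 were lower and 19 higher in MV cells, with a median of -0.22. Both sets were chosen by their RB difference, so the distance of MV from RB in them is no test. In all 3 pairs 63 of these 171 were lower and 2 higher, and 24 of the 303 were lower and 59 higher. This stands beside 12.6% lower and 15.2% higher of all probe sets. Of the 9038 with a mean signal of at least 6, 1772 were lower and 494 higher in all pairs. None of the 303 or of the 171 passed in MV. In a direct comparison of MV with IC cells 0 probe sets passed (0%), the smallest adjusted p was 0.0823, and 888 had an unadjusted p under 0.05.

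A list of 18 loci with roles in cell death and disease resistance was used, and 13 had a probe set of their own. It held loci named in the study's text and BAP1, which that text does not name. In MV cells 6 were higher and 7 lower, the median was 0.00, and all 13 intervals lay within -1 and 1. BAP1, whose protein restrains cell death, gave 4.01, 3.59 and 3.57 in MV cells against 4.10, 3.96 and 4.04 in the control, a difference of -0.31 (-0.63 to 0.01) beside 3.48 under RB. BAG3, for a co-chaperone, differed by -0.31 (-0.58 to -0.03) with every MV array below every control array, and PAD4, for a lipase-like regulator of defence, by -0.07 (-0.36 to 0.22). In IC cells against the same controls BAG3 differed by -0.38, so its direction was not particular to MV.

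Of the listed genes for jasmonate and ethylene synthesis 6 had a probe set, and 5 of these were lower in MV cells (median -0.19). The median was -0.30 in pair 1 and -0.37 in pair 2 but 0.17 in pair 3, where 4 of the 6 were higher. The lower ones included AOS, for allene oxide synthase of the jasmonate pathway, at -0.48 (-1.04 to 0.09), and OPCL1, for a ligase of the same pathway, at -0.42 (-0.84 to 0.01). ACS6, for an enzyme of ethylene synthesis, differed by 0.11 (-0.50 to 0.73). Of the factors that carry the jasmonate response, MYC2 gave 8.34, 8.59 and 8.16 in MV cells against 9.41, 9.05 and 8.997 in the control. Every MV array lay below every control array, with a difference of -0.79 (-1.43 to -0.15). MYC4 gave 6.23, 6.38 and 5.32 in MV cells against 6.65, 6.65 and 6.90 in the control, likewise without overlap, and differed by -0.76 (-1.45 to -0.07). That value rests on pair 3, since without it the difference was -0.35. With 1 array left out MYC4 ran from -1.02 to -0.33 and MYC2 from -0.98 to -0.47. Under RB, MYC2 differed by 2.21, and the RB effect minus the MV effect was 3.01 (adjusted p = 0.00263 with limma).

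Among nuclear genes with a name, DREB2A had the smallest p. It encodes a factor of the responses to drought and heat. The signals were 7.15, 8.67 and 7.96 in MV cells against 5.98, 7.69 and 6.62 in the control. The groups overlapped because the control of pair 2 was bright, but the pair differences of 1.17, 0.98 and 1.35 were alike, and their mean of 1.17 had a 95% interval from 0.73 to 1.60 and an adjusted p of 0.579 with limma. The same gene differed by 5.31 under RB, and the RB effect minus the MV effect was 4.14 (adjusted p = 1.75e-05). The 17 ERF and DREB factors, DREB2A included, went both ways, with 9 higher, 8 lower and a median of 0.01. The median was 0.02 in pair 1, -0.31 in pair 2 and 0.21 in pair 3.

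WRKY factors, many of which act in defence and senescence, had the highest median of the nuclear lists (0.20), with 15 of 18 higher in MV cells. The median was above 0 in every pair, at 0.34, 0.16 and 0.26. In all 3 pairs 8 were higher (15.2% of all probe sets) and 2 lower (12.6%), and at an unadjusted p under 0.05 there were 3 higher (2.16%) and 2 lower (3.43%). WRKY6 gave 8.66, 8.38 and 8.37 in MV cells against 8.04, 7.74 and 7.45 in the control. All MV arrays lay above all control arrays, and the difference was 0.73 (0.36 to 1.10, adjusted p = 0.820 with limma). WRKY53, a factor of senescence, differed by 0.82 (0.01 to 1.63; 0.27 to 1.14 with 1 array left out), WRKY33, which directs defence against fungi, by 0.70 (0.13 to 1.26), and WRKY46 by 0.63 (-0.08 to 1.34). In the other direction WRKY4 gave 5.18, 5.04 and 5.01 in MV cells against 5.65, 5.39 and 5.36 in the control without overlap, a difference of -0.39 (-0.66 to -0.13), and WRKY22 differed by -0.41 (-1.07 to 0.25). WRKY40, another factor of defence, differed by 0.42 (-0.45 to 1.28).

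The median was 0.04 for NAC factors, 0.00 for MYB factors and -0.03 for bHLH and bZIP factors, so these had no common direction. NAC083, a repressor of xylem vessel formation, was among the 5 smallest p-values of the lower genes. Its signals were 7.69, 8.08 and 8.15 in MV cells against 8.37, 8.67 and 8.73 in the control, without overlap, and the pair differences gave a mean of -0.61 (-0.90 to -0.33). NAC019, a factor of the abscisic acid and jasmonate responses, differed by -0.56 (-0.995 to -0.12), MYB77 of the auxin response by -0.51 (-0.95 to -0.08) and bZIP44 by -0.50 (-0.80 to -0.21). Under IC and the same controls bZIP44 differed by -0.50 as well, and MYB77 by -0.13. NAC053 and NAC102 were higher at 0.37 each. Kinases of the MAP cascade (7 genes) and calcium sensors with their kinases (16 genes) had medians of -0.09 and 0.06. The lowest members were MKK9 at -0.41 (-1.10 to 0.27) and the calmodulin-like gene CML23 at -0.62 (-1.28 to 0.04), while the bright calmodulin-like gene TCH3 was at -0.05 (-0.35 to 0.26).

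Heat shock proteins and factors were mostly higher in MV cells (15 of 17, median 0.10), yet none of these 17 was higher in all 3 pairs. The median was 0.17 in pair 1 and 0.38 in pair 2 but -0.26 in pair 3. Their levels also varied among arrays of 1 group. The small heat shock protein gene HSP17.4 gave 8.04, 11.31 and 9.44 in MV cells against 6.94, 10.12 and 10.41 in the control. HSFA2, a factor that sustains the heat response, gave 4.17, 7.18 and 4.23 in MV cells against 3.47, 5.45 and 4.65 in the control, a difference of 0.67 (-0.36 to 1.71), and the coactivator MBF1C differed by 0.67 (0.01 to 1.33). The bright HSP70 transcript differed by 0.03 (-0.52 to 0.57) under MV and by 3.36 under RB. The RB effect minus the MV effect passed for 7 of the 17, all with RB higher. Among all probe sets it passed for 0.95% with RB higher and 0.391% with RB lower.

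Enzymes that remove reactive oxygen were close to the control. Of 10 antioxidant genes 8 were lower and 2 higher with a median of -0.05, which turned to 0.02 after another quantile normalization, and all 10 intervals lay within -1 and 1. GSH1, for the first enzyme of glutathione synthesis, had the largest difference, with 9.85, 9.82 and 9.65 in MV cells against 10.24, 9.80 and 10.33 in the control (-0.35, -0.71 to 0.01). Of the class III peroxidases, secreted enzymes of the cell wall, 7 of 8 were lower (median -0.22), but in pair 3 the median was 0.03 and 4 of 8 were higher. PRX72, which takes part in lignin formation, differed by -0.50 (-0.98 to -0.02). The 6 genes of alternative respiration had a median of -0.05 (0.01 after another quantile normalization), and their differences ran from -0.19 to 0.12.

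Genes for the handling of foreign molecules, gave no common direction. All 25 glutathione transferases had intervals within -1 and 1, with a median of 0.08 and a range from -0.47 for GSTU6 to 0.25 for GSTU10. The brightest, GSTF8, gave 11.22, 11.66 and 12.41 in MV cells against 11.47, 11.98 and 11.94 in the control (-0.04, -0.60 to 0.53). The 52 UDP-glycosyltransferases had a median of 0.00, from -0.66 for the flavonol gene UGT78D1 to 0.54 for UGT84A4. The 37 cytochromes P450 had a median of 0.07 and a low outlier in CYP707A3, for an enzyme that breaks down abscisic acid. It gave 5.01, 5.21 and 5.11 in MV cells against 5.70, 5.99 and 6.13 in the control, with no overlap and a difference of -0.83 (-1.38 to -0.27). Of 17 ABC and MATE transporters 11 were lower (median -0.13), with ABCB2 lowest at -0.49 (-0.79 to -0.18).

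Transcripts for the cell wall had the most members with a low unadjusted p outside the plastid list. Of 34 genes for cellulose synthases and wall proteins 27 were lower in MV cells (median -0.18), 16 of them in all 3 pairs (12.6% of all probe sets) beside 4 that were higher in all pairs (15.2%). At an unadjusted p under 0.05 there were 8 lower (3.43%) and 1 higher (2.16%). Of the 9038 probe sets with a mean signal of at least 6, 1772 were lower in all pairs and 548 lower at that p. CESA4, for a cellulose synthase of secondary walls, gave 8.87, 7.42 and 8.70 in MV cells against 9.48, 8.20 and 9.18 in the control. The groups overlapped, since both arrays of pair 2 were low, and the difference was -0.62 (-0.97 to -0.27). The fasciclin-like genes FLA16, FLA9, FLA15 and FLA18 differed by -0.55, -0.50, -0.50 and -0.49. EXT3, for an extensin, was the highest at 0.42 (0.11 to 0.72), but it differed by 0.63 under IC and the same controls. IRX12, which encodes a laccase of lignin formation, was outside the list and gave 9.27, 6.59 and 8.53 in MV cells against 9.77, 7.86 and 9.07 in the control, a difference of -0.77 (-1.14 to -0.41, adjusted p = 0.820 with limma). Every one of the 34 intervals lay within -1 and 1. The medians of the wall list were -0.27 and -0.31 in pairs 1 and 2 but -0.01 in pair 3, and they stand beside a median of -0.08 for all probe sets with a mean signal of at least 6.

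Expansins and xyloglucan enzymes, which loosen the wall, had 17 higher and 18 lower of 35 genes (median -0.02). EXPA15 was highest, with 5.44, 5.47 and 5.69 in MV cells against 5.03, 5.06 and 4.75 in the control, without overlap, at 0.58 (0.16 to 1.01). EXLA2 was lowest, with 8.64, 8.91 and 9.003 in MV cells against 9.14, 9.43 and 9.44 in the control, likewise without overlap, at -0.48 (-0.75 to -0.22). Cell division genes (10 cyclins, CDKs, their inhibitors and histones) had a median of -0.08 and all intervals within -1 and 1. The named ribosomal protein genes of the nucleus numbered only 3 and a single proteasome gene was found, RPN12a at -0.28, too few to describe as groups. The reference transcripts PEX4 and GAPC2 differed by 0.02 (-0.23 to 0.26) and -0.13 (-0.38 to 0.11).

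**Figure D4:**
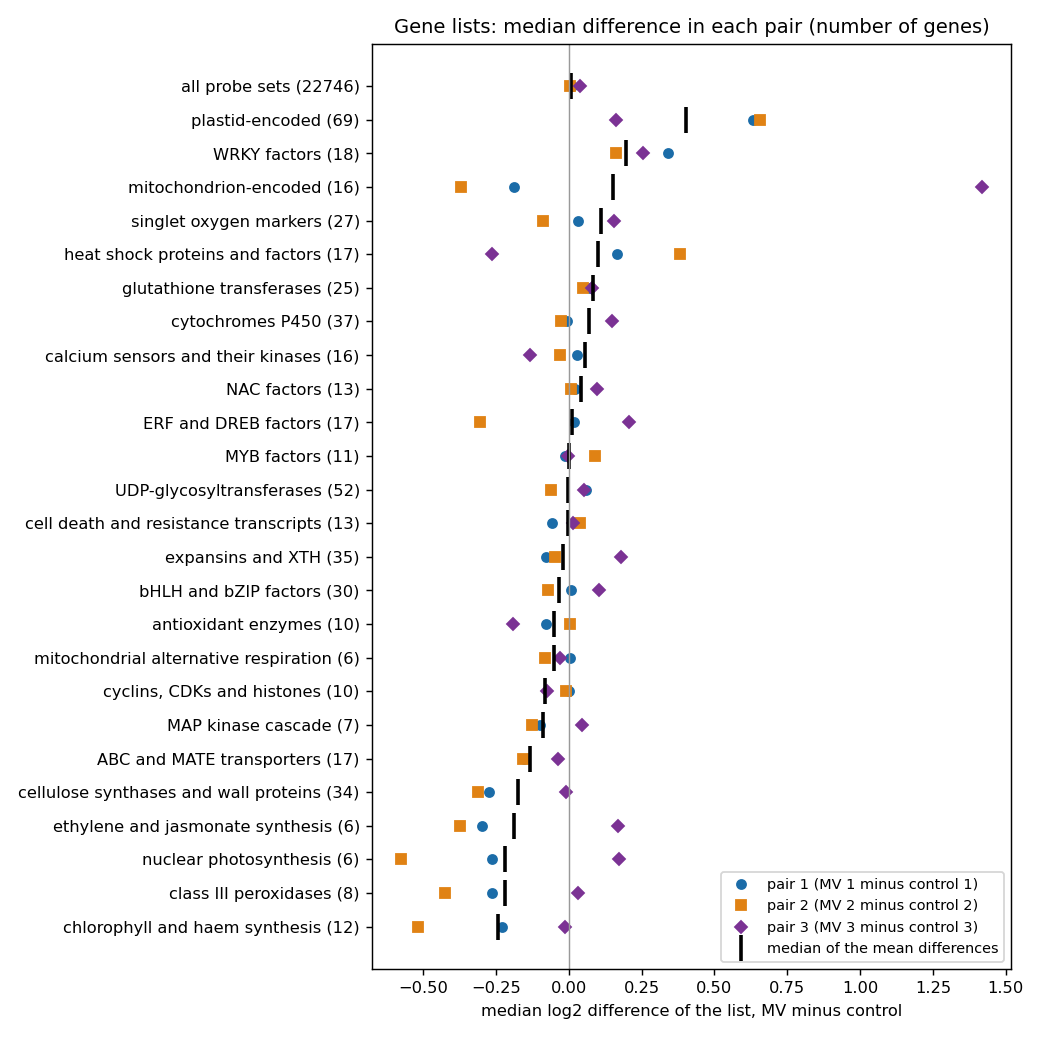
For each gene list with at least 5 genes the median log2 difference between MV and control is shown in pairs 1 (circles), 2 (squares) and 3 (diamonds), with a black bar for the median of the mean differences and the number of genes in brackets. Pairs 1 and 2 lie on one side and pair 3 on the other for many lists, and the mitochondrial list has pair 3 at 1.42.

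Families were also formed from gene symbols alone, by the letters before the first digit, which gave 31 families of at least 10 genes. The highest medians were those of HSP (0.20, 11 genes), WRKY (0.18, 17 genes) and EXPA (0.16, 10 genes). In pair 3 the HSP median was -0.28 (3 of 11 higher), and 1 gene of this family, which differs from the list above, was higher in all pairs. The EXPA medians were 0.03, 0.01 and 0.41 in pairs 1, 2 and 3. The lowest were those of SKS (-0.21, 10 genes), PAP (-0.20, 10 genes) and XTH (-0.16, 14 genes). The SKS genes, relatives of multicopper oxidases of the cell wall, were lower in all 3 pairs for 6 of 10, and the purple acid phosphatase genes PAP for 4 of 10, beside 12.6% of all probe sets and 1772 of 9038 with a mean of at least 6. The XTH medians were -0.11, 0.01 and 0.02 in pairs 1, 2 and 3. All 31 medians lay between -0.21 and 0.20.

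The remaining genes chosen for their size or p were mostly known by locus only. The lowest difference on the array, -1.73 (-3.52 to 0.06), belonged to a probe set shared by AT1G53903 and AT1G53885, with 5.78, 6.85 and 5.29 in MV cells against 7.82, 8.58 and 6.72 in the control. A probe set without a gene name gave -1.22. Among probe sets of 1 named gene with the same sign in all pairs and a mean signal of at least 6, the lowest differences were those of AT3G19680, with 5.89, 5.81 and 7.34 in MV cells against 7.16, 7.81 and 7.53 in the control (-1.15, -1.87 to -0.44), AT5G42200 (-0.95, -1.52 to -0.37) and AT1G33760 (-0.90, -1.72 to -0.08). The first of these differed by -1.27 and -1.999 in pairs 1 and 2 but by -0.19 in pair 3. AT3G14920 was more even, with 7.95, 7.78 and 8.10 in MV cells against 8.73, 8.64 and 8.70 in the control and a difference of -0.75 (-1.13 to -0.36), and AT4G19430 gave -0.79 (-1.23 to -0.34) and AT1G44130 -0.68 (-1.22 to -0.14). The other genes with small p-values were AT1G74510 (-0.65), AT2G40460 (-0.57) and AT1G23030 (-0.52) among the lower ones and AT5G38310 (0.66) and AT5G11680 (0.50) among the higher ones. For AT5G11680 the MV arrays gave 9.47, 9.46 and 9.39 and the control arrays 8.91, 8.82 and 9.10, without overlap, and none of these genes passed the adjustment.

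**Figure D5:**
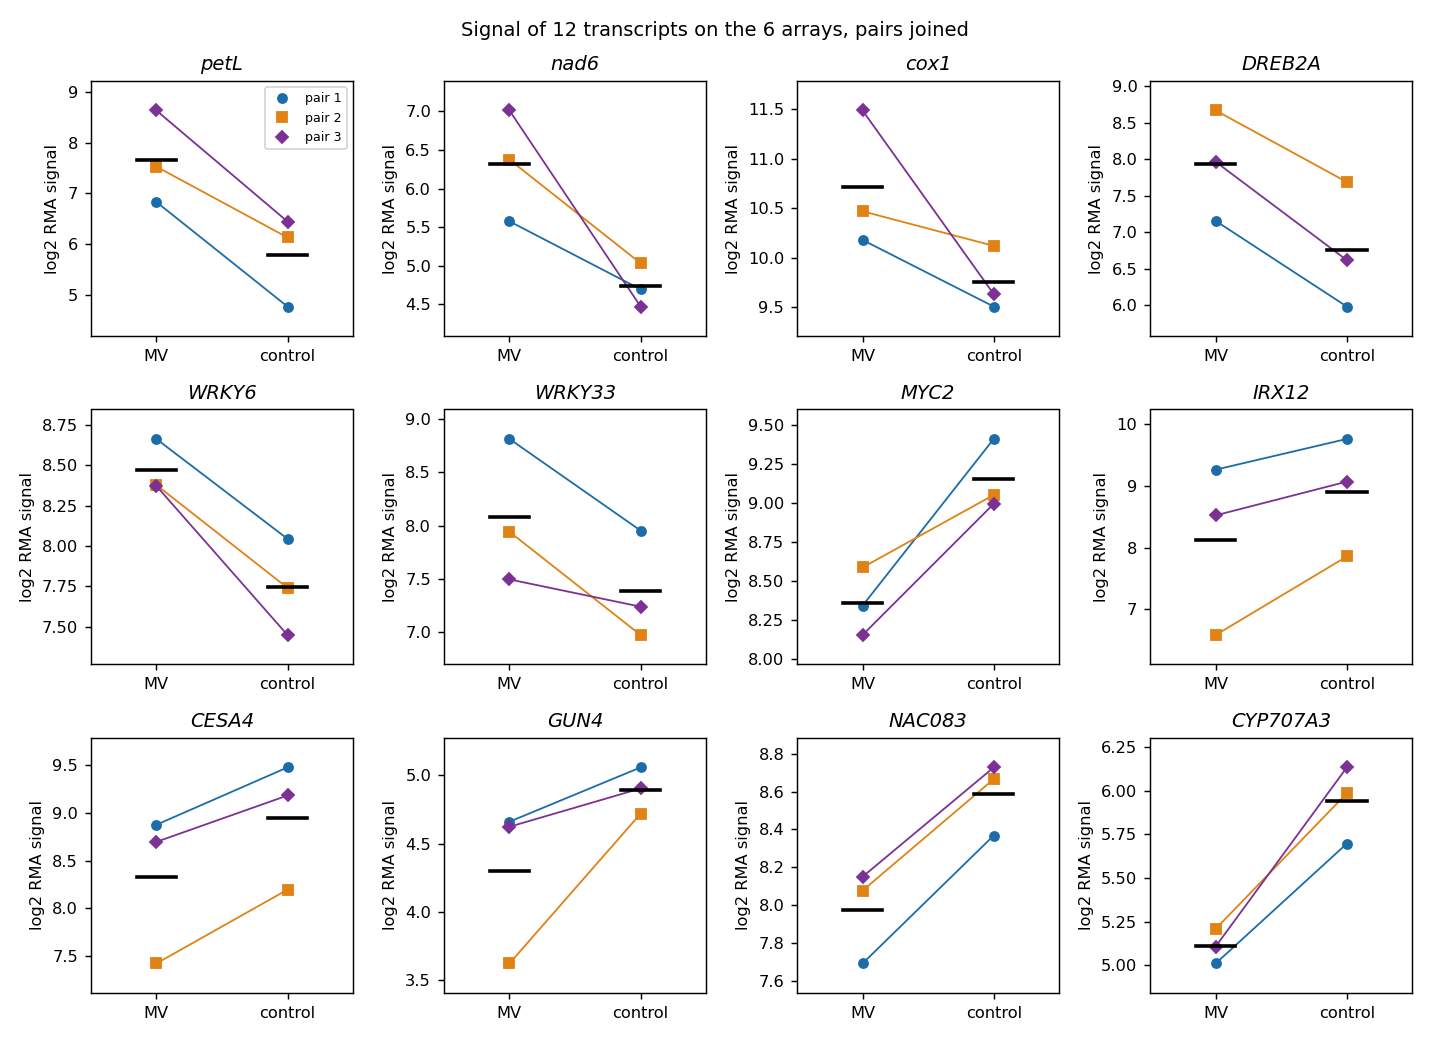
Log2 RMA signals of 12 transcripts are plotted for the 3 MV arrays (left) and the 3 control arrays (right) of each panel, with lines joining the arrays of a pair and black bars at the group means. The pairs of DREB2A and NAC083 run nearly in parallel, that of IRX12 is steepest in pair 2, and those of nad6 and cox1 are steepest in pair 3.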

How the data were processed

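The authors hybridized biotin-labelled cRNA to Affymetrix ATH1 arrays, and the deposited values are log2 RMA signals of 22810 probe sets (the processing notes name affy and RMA, without versions). The number of arrays limits the precision. The 64 control probe sets were left out. A linear model over all 18 arrays (limma 3.58.1, R 4.3.3) held 6 blocks, 1 for each control array and the treated arrays of its number; it had 8 residual and 4.63 prior degrees of freedom. The eBayes p-values were adjusted by Benjamini-Hochberg over 22746 probe sets at 0.05. Titles pair each control with the MV array of its number. Deviations of MV and control arrays of the same number correlated with 0.634, 0.182 and -0.333. The fit was tested on simulated data. Intervals are 95%. Alternatives were the fit without blocks or on fewer arrays, other scalings, a filter on dim probe sets, a trended robust prior, control probe sets kept, and single arrays left out.

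Platform annotation and the study's tables gave exactly 1 gene for 14371 probe sets; 7835 had none and were tested but not named. Lists took the probe set with the highest mean per gene, and genes that only share a symbol were left out. Named by rule were the 10 largest differences each way (same sign in all pairs, mean of at least 6), the 5 smallest p-values each way, the extremes and brightest member of each list, the markers, the study's loci and DREB2A, BAP1 and nad6; all further genes were chosen after their values were seen. The members and lists were chosen with earlier results of these data known. Replicates are labelled biological, and nothing says more of the cultures.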

Additional observations from a re-analysis of the deposited data

Results flagged for a closer look

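The effects of RB and of MV at the same dose differed, by the test of RB minus MV in limma, for 216 probe sets with RB higher and 89 with RB lower. Among the singlet oxygen markers the log2 difference of the effects, RB minus MV, was 5.15 for ERF13, 3.48 for DLAH, 3.25 for ERF5, 3.21 for CAF1a, 2.54 for NUDT21, 2.15 for CMPG2, 2.13 for ERF105 and 2.12 for RDUF1. It was 1.62 for AT2G27830, 1.51 for AT3G57120, 1.49 for HSFA8, 1.46 for EXO70B1, 1.43 for ORA47 and 1.41 for ATL2. The study took these markers from transcripts that RB changed by over 1 on the log2 scale on arrays of this series. RB above MV in them is therefore no test. Each treatment was compared with its own control arrays. The dose was the same, but the paper gives MV a lower singlet oxygen yield than RB.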

How the results depend on the processing

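No setting tried gave a probe set past the adjustment in limma, and the smallest adjusted p ran from 0.286 to 1.0. At an unadjusted p under 0.05 there were 491 probe sets higher and 781 lower in MV cells. Without the replicate block, that is without the pairing, these were 425 and 333, and the interval lay within -1 and 1 for 91.4% in place of 96.4%. With array medians subtracted 507 were lower. With dim probe sets (mean under 5) left out, 131 were higher, and 11168 passed the test against -1 and 1, of the fewer probe sets tested. Leaving out 1 array at a time gave 286 to 744 higher and 321 to 1408 lower, 7 to 79 differences over 1 and 7 to 24 under -1. Without control array 3 there were 79 over 1, and without control array 1 there were 7. Leaving out pair 3, a setting chosen after seeing the data, gave 900 higher, 1537 lower, 119 over 1 and 31 under -1. The cause was not tested. The medians of the plastid list (0.24 to 0.60), the WRKY factors (0.15 to 0.29) and the wall list (-0.30 to -0.12) kept their sign under all settings, whereas those of the mitochondrial list (-0.36 to 0.55) and the markers (-0.06 to 0.17) did not. Of 42 named genes with a difference of at least 0.5 either way, 22 moved by over 1.5 times with 1 array left out, and 1, ndhA, changed sign. The 3 pairs and their disagreement limit what could be seen.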
